A study of Mus musculus with 2 samples.

Results

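The 10 genes described here are carried by the mitochondrial genome and code for subunits of the respiratory chain and of ATP synthase: mt-Nd1, mt-Nd2, mt-Nd3, mt-Nd4 and mt-Nd5 of complex I, mt-Cytb of complex III, mt-Co1, mt-Co2 and mt-Co3 of complex IV, and mt-Atp6 of ATP synthase. They were taken by symbol, over all clusters, from 3 deposited tables that together list 5238 genes. All 10 were listed for the control library and all 10 for the FGF2 library, and 0 in the table of clusters made after both libraries were integrated.

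The study made single-cell RNA sequencing libraries, with a 10x 3′ kit that tags each transcript near its poly(A) end, from salivary gland stroma organoids of CD-1 mice, an outbred stock. The control group was 1 library of organoids without FGF2 and the other group 1 library from organoids given FGF2, a growth factor of fibroblasts. Both carry the age label embryonic day 16 with an added 7, whose meaning is not given in the sources used here, nor are the dose and timing of FGF2, the number of animals and the genotype. Per the labels, 5023 control and 10107 FGF2 cells were captured. The stromal label was checked on the recovered shares of cells with a count: Pdgfra was found in 78.3% of control and 84.2% of FGF2 cells, Vim in 95.8% and 95.4%, Col1a2 in 93.2% and 90.6%, Prrx1 in 89.2% and 94.4%, Dcn in 84.8% and 91.7%, and Thy1 in 72.4% and 85.3%. The other 4 of the 10 stromal markers were less even: Col3a1 was found in 92.4% and 32.0%, Col1a1 in 92.3% and 72.1%, Pdgfrb in 82.0% and 57.6%, and Lum in 51.1% and 69.0%. With 1 library a group there is no replicate error, so no difference below has a test, and counts per cell are not given in the files used here, so no interval could be set.

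Mitochondrial DNA is transcribed into long RNAs that span many genes. These are cut into messengers largely at the transfer RNAs that lie between them, so the members share their promoters. The other subunits of complexes I, III and IV and of ATP synthase, and all of complex II, are coded in the nucleus, so that a working chain needs the products of both genomes. The GENCODE annotation of GRCm38 places 13 protein-coding genes, 22 transfer RNA genes and 2 ribosomal RNA genes on chromosome M, with 12 of the 13 protein-coding genes on the plus strand, the 10 members among them. Each member is annotated without introns, with mt-Nd1 at chrM:2751-3707, mt-Nd2 at chrM:3914-4951, mt-Co1 at chrM:5328-6872, mt-Co2 at chrM:7013-7696, mt-Atp6 at chrM:7927-8607, mt-Co3 at chrM:8607-9390, mt-Nd3 at chrM:9459-9806, mt-Nd4 at chrM:10167-11544, mt-Nd5 at chrM:11742-13565 and mt-Cytb at chrM:14145-15288.

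Some neighbours overlap, and a read inside an overlap cannot be given to 1 gene by position alone. The 4 overlap windows are shown because they bear on how far the counts of mt-Atp6, mt-Co3, mt-Nd4 and mt-Nd5 can be told from those of their neighbours. Each is the plus strand of GRCm38 from 5′ to 3′ with 20 bases on each side, and capitals mark the shared bases, 43 for mt-Atp8 and mt-Atp6 (chrM:7907-7989), 1 for mt-Atp6 and mt-Co3 (chrM:8587-8627), 7 for mt-Nd4l and mt-Nd4 (chrM:10147-10193) and 14 for mt-Nd5 and mt-Nd6 (chrM:13532-13585), which lie on opposite strands.
mt-Atp8 and mt-Atp6: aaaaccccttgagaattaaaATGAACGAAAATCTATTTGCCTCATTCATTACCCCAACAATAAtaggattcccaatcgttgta
mt-Atp6 and mt-Co3: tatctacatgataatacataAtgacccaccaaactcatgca
mt-Nd4l and mt-Nd4: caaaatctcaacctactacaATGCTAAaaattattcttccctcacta
mt-Nd5 and mt-Nd6: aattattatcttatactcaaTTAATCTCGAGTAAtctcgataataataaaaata

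Because the kit captures transcripts near the poly(A) end, the last 60 annotated bases are shown for the member found in most cells, mt-Co3 (chrM:9331-9390), and for both members found in fewest, mt-Nd3 (chrM:9747-9806) and mt-Nd5 (chrM:13506-13565). All are on the plus strand, and capitals mark runs of 4 or more A, which only the mt-Nd3 end holds. Whether an annotated end is also the poly(A) end of the messenger was not checked.
mt-Co3 end: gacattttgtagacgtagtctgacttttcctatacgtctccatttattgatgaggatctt
mt-Nd3 end: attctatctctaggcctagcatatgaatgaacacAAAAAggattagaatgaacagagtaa
mt-Nd5 end: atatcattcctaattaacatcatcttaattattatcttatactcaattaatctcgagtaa

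For each cluster the tables give the natural log of the average in the cluster over that in all other cells of the library, and the share of cells with a count in both. An average carries an offset of 1, which draws the ratio of a gene with a low average toward no difference. Every listed entry had a ratio of at least 0.25 in size and an unadjusted p of the authors of at most 0.01. Each was also found in at least 25.1% of the cells of the cluster or of the others. An unlisted gene is thus neither absent nor shown to be equal. The percentages of genes tested below count every gene adjusted for, also any found in too few cells to be listed. They are thus no like-for-like background for the members, which were found in most cells. The sizes of the clusters were recovered from the shares, and a level below is the cluster's average over the library's average, each with its offset. The 4 clusters with low shares (control 4 and 9, FGF2 10 and 13) held 10.6%, 2.83%, 3.51% and 1.41% of the cells of their library.

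The members formed a narrow pattern. In the control library they had 49 entries, 20 higher and 29 lower than in the other cells, in 8 of 15 clusters. In the FGF2 library they had 36 entries, 3 higher and 33 lower, in 6 of 17 clusters. In no cluster was 1 member listed higher and another lower. The 7 control and 11 FGF2 clusters with no entry held most of the cells, among them the clusters with most of the proliferation markers (control 7 and 8, FGF2 9) and the largest clusters (control 0 and 1, FGF2 0 and 1). Taken jointly, the clusters where a given member was not listed lay at 1.02 to 1.11 times the library level in control and at 1.01 to 1.08 times in FGF2.

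**Figure D1:**
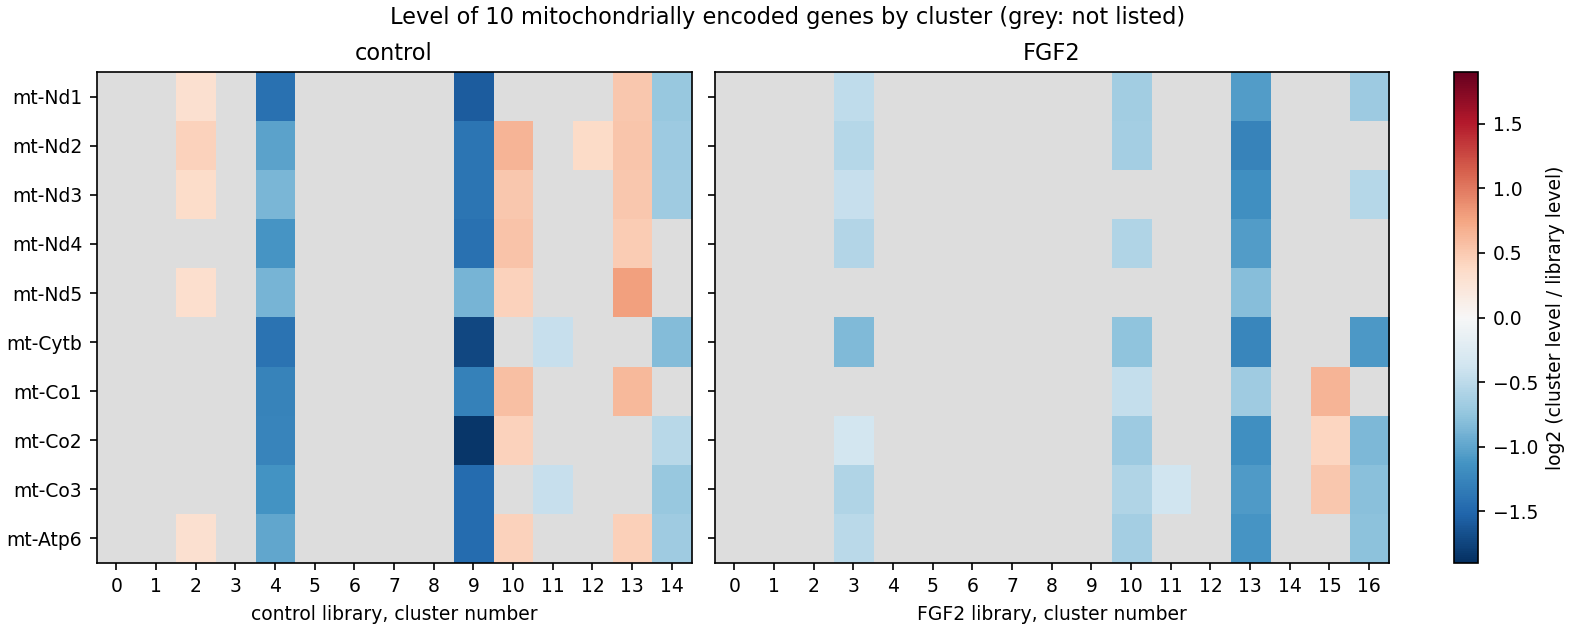
Level of each of the 10 members (rows) in each cluster (columns) of the control and FGF2 libraries, as log2 of the cluster's average over the library's average, each with an offset of 1; grey cells are not listed. Within a column all listed members share 1 direction, and the lowest columns are control 4 and 9 and FGF2 13.

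The leading genes of control cluster 4 were 3 transcripts, AY036118, Gm42418 and Gm26917, annotated over ribosomal RNA sequence. In it 6 of 7 contractile markers were listed higher, but it is left unnamed because its leading genes are not of that kind. All 10 members were listed lower there, against 2.09% of the 19070 genes tested. Their median level was 0.457 times the library's, from 0.374 for mt-Nd1 to 0.549 for mt-Nd3. Among the 398 genes listed lower in the cluster, mt-Nd1 ranked 3 and mt-Cytb 4 by size of the log ratio, with mt-Co1 at 5 and mt-Co2 at 6.

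In control cluster 9, epithelial-like with 4 of 10 epithelial markers listed higher and led by Wfdc18, Krt18 and Krt8, all 10 members were listed lower, against 4.43% of genes tested. The median level was 0.368, from 0.279 for mt-Co2 to 0.542 for mt-Nd5. FGF2 cluster 13, led by the actin and actin-binding genes Acta2, Tagln and Actb and contractile-like with 5 of 7 markers, again listed all 10 lower, against 4.77% of 20056 genes tested. The median there was 0.467, from 0.414 for mt-Nd2 to 0.629 for mt-Co1. The larger contractile-like clusters that also had Acta2 and Tagln among their leading genes, control 5 and FGF2 4, listed no member.

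FGF2 cluster 10, led by Gm42418, Xist and Malat1, listed 8 members lower against 0.987% of genes tested, with mt-Nd3 and mt-Nd5 not listed. The median level was 0.641, from 0.588 for mt-Cytb to 0.727 for mt-Co1.

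Shares were low in these 4 clusters for listed genes in general. The median share over all listed genes was 10.9% in control cluster 4 against 84.8% in the other cells, 7.0% against 67.7% in control 9, 14.4% against 70.8% in FGF2 10 and 12% against 66.5% in FGF2 13. Other clusters were not far from them on this measure, with 16.1% against 62.7% in FGF2 16, 21.9% against 62.7% in FGF2 15, 26.7% against 62.5% in control 14 and 28.5% against 58.8% in FGF2 11. Of the genes listed higher in level in control 4 and 9 and FGF2 10 and 13, 98.3%, 97.8%, 100% and 86.8% were found in a smaller share of the cluster's cells than of the other cells. The part of low counts per cell in the members' lower levels was not tested, since the files used here hold no counts per cell.

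Each listed member was found in more of these cells than the median listed gene, but also in more of the other cells. The median share of the listed members was 42.4% in control 4, 29.6% in control 9, 72.4% in FGF2 10 and 70.5% in FGF2 13. For the listed nuclear genes of the respiratory chain and ATP synthase it was 36.7%, 26.5%, 22.6% and 78.9%. In control cluster 4, mt-Co3 had a count in 73.8% of cells, mt-Atp6 in 72.1%, mt-Co1 in 63.3% and mt-Co2 in 61.4%. There mt-Cytb had a count in 44.6%, mt-Nd4 in 40.1%, mt-Nd1 in 39.0%, mt-Nd2 in 37.7%, mt-Nd3 in 24.3% and mt-Nd5 in 14.9%. The complex IV genes and mt-Atp6 thus stood above mt-Cytb, and mt-Cytb above every complex I gene, although all 10 were found in 95.1% to 98.7% of the other cells.

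In control cluster 9 the same steps appeared at lower shares: mt-Co3 68.3%, mt-Atp6 58.5%, mt-Co1 56.3% and mt-Co2 44.4%, then mt-Cytb 30.3%, then mt-Nd2 28.9%, mt-Nd1 and mt-Nd4 27.5%, mt-Nd3 14.8% and mt-Nd5 12%. In FGF2 cluster 13 shares were higher, with mt-Co3 at 90.1%, mt-Co1 at 88.7%, mt-Co2 at 84.5%, mt-Atp6 at 81.7% and mt-Cytb at 75.4%, but mt-Nd5 at 26.1% and mt-Nd3 at 23.9%. FGF2 cluster 10 ran from 89.0% for mt-Co3 and 85.9% for mt-Co1 to 52.0% for mt-Nd1 and 46.6% for mt-Nd2. In each of the 4 clusters the lowest share of a complex IV gene or mt-Atp6 lay above that of mt-Cytb, and mt-Cytb above the highest of a listed complex I gene. The order was nearly that of the other cells (Spearman's rho 0.96 to 0.99 over the listed members, a description, since the members share libraries and cells). Over the 10 genes, rho between the share and GC content was 0.56 in control cluster 4 and 0.72 in FGF2 cluster 13, and between the share and annotated length -0.24 and -0.03.

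**Figure D2:**
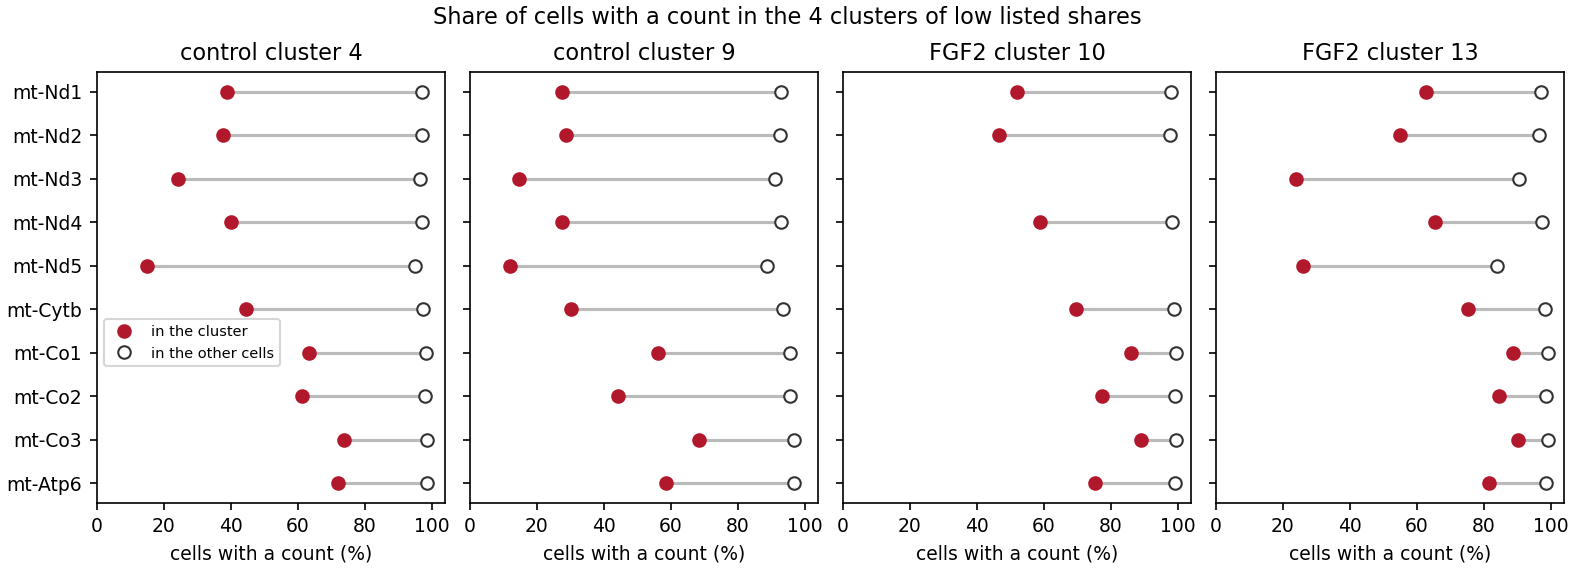
Share of cells with a count (horizontal axis, %) for each member in the 4 clusters of low listed shares (filled) and in the other cells of the same library (open); a member with no points was not listed. The complex IV genes and mt-Atp6 stay highest and mt-Nd3 and mt-Nd5 fall lowest where they are listed, to 14.8% and 12% in control 9.

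The nuclear genes of the chain did not share the members' direction in control clusters 4 and 9 and FGF2 cluster 13. Of a list of 102 symbols, aliases included, 61 nuclear chain genes were listed anywhere in the control table. Of these, 11 were listed higher and 0 lower in cluster 4, and 35 higher and 1 lower in cluster 9. Of 55 in the FGF2 table, 34 were listed higher and 0 lower in cluster 13. Among all listed genes found in over 90% of the other cells, 49 were higher and 120 lower in control cluster 4, and 43 higher and 67 lower in control 9. In FGF2 13 such genes were 163 higher and 75 lower, so widely found genes in general were mostly higher in level there. In the authors' deposited table for control, the ATP synthase gene Atp5b had a log ratio of 0.33 in cluster 4, where mt-Atp6 had -0.75. In the authors' deposited table for FGF2, Atp5b had 0.71 in cluster 13 and mt-Atp6 -0.79, and the complex IV gene Cox7b had 0.62 where mt-Co2 had -0.82. All 11, all 35 and all 34 of the nuclear genes listed higher were nonetheless found in a smaller share of the cluster's cells: Atp5b had a count in 48.4% of control cluster 4 against 97.2% of the other cells. FGF2 cluster 10 listed 0 nuclear chain genes higher and 3 lower (Ndufb9, Ndufa8 and Atp5c1).

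Transcripts that stay in the nucleus also separated these clusters by level. In control clusters 4 and 9 and FGF2 cluster 13 the listed ones were all lower, 3, 5 and 5 of the 5 listed per table. Malat1 stood at -3.0, Neat1 at -2.77 and Meg3 at -2.0 in FGF2 cluster 13 in the authors' deposited table. In FGF2 cluster 10, by contrast, 4 were listed higher and 0 lower, with Xist at 0.73 and Malat1 at 0.69 in the authors' deposited table. All 4 were nonetheless found in a smaller share of that cluster's cells, Xist in 28.5% against 67.3% and Meg3 in 38.7% against 94.6% of the other cells. By level the members were lower both beside low and beside high nuclear transcripts. By share the listed nuclear transcripts were lower in each of these clusters. The genes over ribosomal RNA were listed higher in control 4 and 9 (3 each) and in FGF2 10 (2), and in FGF2 13 only Gm26917 was listed, lower. Of those listed higher, 1 in control 4, 1 in control 9 and both in FGF2 10 were found in a smaller share of the cluster's cells.

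FGF2 cluster 3 showed lower member levels with no loss of share. It held 9.87% of FGF2 cells and was led by Ero1l, a thiol oxidase of the endoplasmic reticulum induced in hypoxia, Il33, a cytokine, and Fam162a, a hypoxia-induced mitochondrial protein. In it 8 members were listed lower, against 0.409% of genes tested. The median level was 0.692, from 0.557 for mt-Cytb through 0.674 for mt-Co3, 0.681 for mt-Nd4, 0.685 for mt-Nd2, 0.699 for mt-Atp6, 0.713 for mt-Nd1 and 0.739 for mt-Nd3 to 0.786 for mt-Co2. mt-Co1 and mt-Nd5 were not listed. The 8 members were found in a median of 99.1% of its cells against 97.2% of the others, and only mt-Nd3 in fewer, 87.2% against 89.9%. Of the 82 genes listed lower, mt-Cytb ranked 7.

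Of 24 glycolysis and hypoxia genes listed in the FGF2 table, 22 were listed higher in cluster 3 and 0 lower. The glucose transporter gene Slc2a1 stood at 1.12 and the glycolytic gene Pgk1 at 1.04 there in the authors' deposited table. Only 3 nuclear chain genes were listed in it. In the authors' deposited table these were Ndufa4, first assigned to complex I and later to complex IV, at -0.41, Cox6b2, a complex IV isoform, at -0.26, and Cox4i2, the isoform of complex IV subunit 4 known to be raised by low oxygen, at 0.61. In control cluster 12, where 16 glycolysis and hypoxia genes were listed higher and 0 lower, the picture was another: mt-Nd2 was the only member listed, higher (against 2.5% of genes tested) at 1.29 times the library level with an adjusted p of the authors of 0.05 or more, and 17 nuclear chain genes were listed lower, 1 of them with an adjusted p of the authors under 0.05. Cluster 12 held 0.828% of control cells, was led by Ccl2, Mt1 and Hmox1 and is left unnamed. Whether the members differ between the 2 clusters was not tested.

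Higher levels were found in a few control clusters and 1 FGF2 cluster. Control cluster 2, led by Spp1, Cxcl13 and Saa3 with 5 of 10 stromal markers listed higher, held 13.9% of cells and listed 5 members higher, against 1.3% of genes tested. Its levels were 1.36 for mt-Nd2, 1.27 for mt-Nd3, 1.25 for mt-Nd5 and 1.24 for mt-Nd1 and mt-Atp6. No complex IV gene and not mt-Cytb was listed in it. Nuclear-retained transcripts were also higher there (4 of 5, 0 lower), while 1 nuclear chain gene, Uqcrq of complex III, was listed, lower.

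Control cluster 10, Schwann or glial-like with 9 of 10 markers and 1.15% of cells, listed 7 members higher, against 5.07% of genes tested. The median level was 1.42, from 1.35 for mt-Co2 to 1.56 for mt-Nd2. There 0 nuclear chain genes were listed higher and 15 lower, and 0 glycolysis and hypoxia genes higher and 20 lower. Of the 15, 5 had an adjusted p of the authors under 0.05. Control cluster 13, basal epithelial-like with 6 of 7 basal markers and 0.517% of cells, also listed 7 higher, against 3.88% of genes tested. The median was 1.43, from 1.37 for mt-Atp6 to 1.71 for mt-Nd5. Here 10 nuclear chain genes were listed higher and 1 lower, so most pointed the same way as the members. In this cluster 2 of the 7 members, mt-Co1 and mt-Nd5, and 0 of the 10 nuclear genes had an adjusted p of the authors under 0.05. FGF2 cluster 15, mast-like with 9 of 9 markers, listed only complex IV members, mt-Co1 at 1.57, mt-Co3 at 1.43 and mt-Co2 at 1.33, against 0.912% of genes tested listed higher. It had 14 nuclear chain genes higher and 3 lower, and 3 of the 14 had an adjusted p of the authors under 0.05.

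Small clusters of other cell types gave lower levels. Control cluster 14, endothelial-like with 9 of 9 markers and 0.298% of cells, listed 7 members lower, against 3.86% of genes tested, with a median of 0.622 and a range from 0.567 for mt-Cytb to 0.694 for mt-Co2. All 7 entries there have an adjusted p of the authors of 0.05 or more. Nuclear chain genes pointed the same way, 0 higher and 8 lower, with 0 of the 8 under that limit. FGF2 cluster 16, with 0.307% of cells and 5 of 10 Schwann or glial markers listed higher but led by Apod, Atf3 and Postn, listed 6 members lower, against 4.54% of genes tested. The median was 0.577, from 0.471 for mt-Cytb to 0.688 for mt-Nd3. Nuclear chain genes were listed 0 higher and 29 lower there, 6 of the 29 with an adjusted p of the authors under 0.05.

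Control cluster 11, macrophage-like with 9 of 10 markers, listed only mt-Co3 (0.736) and mt-Cytb (0.739), both lower, against 5.29% of genes tested, and both with an adjusted p of the authors of 0.05 or more. FGF2 cluster 11, epithelial-like with 7 of 10 markers, listed only mt-Co3, lower, at 0.773, against 2.51% of genes tested. In both, 2 members or fewer out of 10 met the conditions for listing, of which size is only 1.

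**Figure D3:**
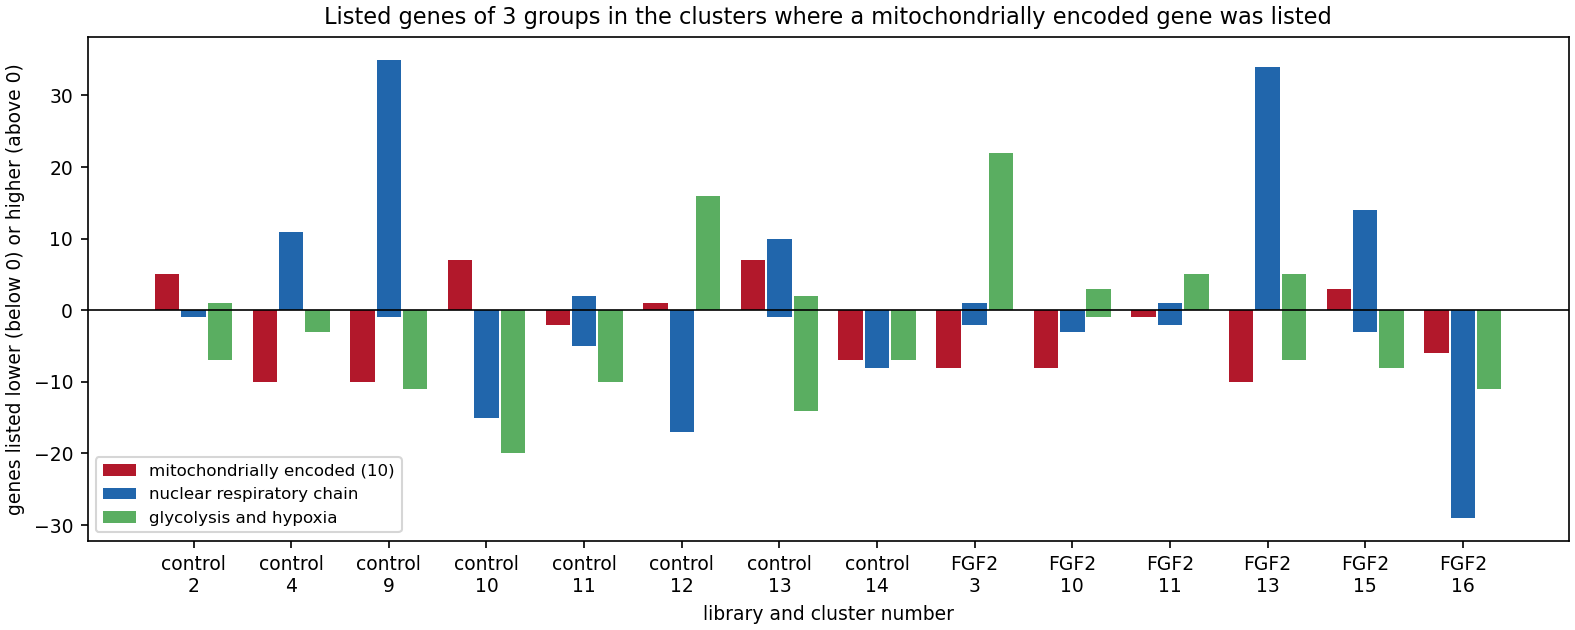
Number of genes listed higher (above 0) and lower (below 0) than in the other cells, for the 10 members, the nuclear respiratory chain genes and the glycolysis and hypoxia genes, in each cluster that lists a member. Members and nuclear chain genes point mostly opposite ways in control 2, 4, 9, 10 and 12 and FGF2 13, and mostly the same way in control 11, 13 and 14 and FGF2 3, 10, 11, 15 and 16. Some of these rest on few genes: control 2 lists 1 nuclear chain gene, and control 12 and FGF2 11 list 1 member. FGF2 3, 10 and 11 list 3 nuclear chain genes each, in FGF2 3 and 11 with 1 higher and 2 lower.

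The complex I genes, core subunits of the NADH dehydrogenase, differed in how often they were listed. mt-Nd2 was listed in 7 control clusters, at 1.36, 0.495, 0.384, 1.56, 1.29, 1.44 and 0.622 times the library level in clusters 2, 4, 9, 10, 12, 13 and 14, and in FGF2 clusters 3, 10 and 13 at 0.685, 0.641 and 0.414. mt-Nd1 was listed in control clusters 2, 4, 9, 13 and 14 at 1.24, 0.374, 0.334, 1.42 and 0.609, and in FGF2 clusters 3, 10, 13 and 16 at 0.713, 0.632, 0.477 and 0.62. Its direction matched that of mt-Nd2 in every cluster listing both. mt-Nd3 was listed in control clusters 2, 4, 9, 10, 13 and 14 at 1.27, 0.549, 0.383, 1.42, 1.43 and 0.627, and in FGF2 clusters 3, 13 and 16 at 0.739, 0.447 and 0.688. mt-Nd4 was listed in control clusters 4, 9, 10 and 13 at 0.458, 0.373, 1.45 and 1.39, and in FGF2 clusters 3, 10 and 13 at 0.681, 0.676 and 0.481. mt-Nd5, the longest of the members, was listed in control clusters 2, 4, 9, 10 and 13 at 1.25, 0.542, 0.542, 1.35 and 1.71, and in 1 FGF2 cluster, 13, at 0.568. By this level mt-Nd5 was the least lowered member in control 9 and the highest in control 13. By share it was the member found in fewest cells of control 9, 12% against 88.7% of the other cells. The offset of 1 draws the level of such a gene toward 1.

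mt-Cytb, the only subunit of complex III coded in mitochondria, was listed lower wherever it was listed. Its levels were 0.378, 0.301, 0.739 and 0.567 in control clusters 4, 9, 11 and 14, and 0.557, 0.588, 0.425 and 0.471 in FGF2 clusters 3, 10, 13 and 16. It was the lowest listed member in control cluster 14 and in FGF2 clusters 3, 10 and 16.

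The complex IV genes code for the catalytic core of cytochrome c oxidase. mt-Co1 was listed at 0.417, 0.409, 1.48 and 1.54 in control clusters 4, 9, 10 and 13, and at 0.727, 0.629 and 1.57 in FGF2 clusters 10, 13 and 15. mt-Co2 was listed at 0.42, 0.279, 1.35 and 0.694 in control clusters 4, 9, 10 and 14, and at 0.786, 0.62, 0.446, 1.33 and 0.554 in FGF2 clusters 3, 10, 13, 15 and 16. mt-Co3 was listed at 0.455, 0.363, 0.736 and 0.61 in control clusters 4, 9, 11 and 14, and at 0.674, 0.672, 0.773, 0.475, 1.43 and 0.574 in FGF2 clusters 3, 10, 11, 13, 15 and 16. By level, mt-Co1 was the least lowered member in FGF2 10 and 13, and mt-Co2 the most lowered in control 9. mt-Atp6, a subunit of the proton channel of ATP synthase, was listed at 1.24, 0.502, 0.362, 1.36, 1.37 and 0.627 in control clusters 2, 4, 9, 10, 13 and 14, and at 0.699, 0.64, 0.458 and 0.581 in FGF2 clusters 3, 10, 13 and 16. How far neighbours in these orders differ beyond replicate spread cannot be told with 1 library a group.

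Over the whole library, most members were found in more FGF2 than control cells. The shares were 91.0% in control and 96.5% in FGF2 for mt-Nd1, 90.9% and 96.0% for mt-Nd2, 91.2% and 96.9% for mt-Nd4, and 91.7% and 97.9% for mt-Cytb. They were 94.6% and 99.0% for mt-Co1, 94.1% and 98.4% for mt-Co2, 96.1% and 99.2% for mt-Co3, and 95.7% and 98.3% for mt-Atp6. mt-Nd3 stood at 88.8% and 89.6%, and mt-Nd5 was the only one found in fewer FGF2 cells, 86.6% and 83.0%. None of the 10 differed by 1.5-fold, against 7.51% of 2318 genes compared higher and 15.3% lower by that much, but of 636 compared genes found in more than 80% of control cells 0 were higher and 14 lower, since such shares cannot rise far.

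The low-share clusters were set apart for their low listed shares, so leaving them out raises the members' shares by construction. They held more of the control cells (10.6% and 2.83%) than of the FGF2 cells (3.51% and 1.41%). The shares without them are thus a description, and no conclusion on where the library difference lies is drawn. Without control clusters 4 and 9 and FGF2 clusters 10 and 13, the 8 members that could be computed lay at 99.4% to 99.8% in control and 98.4% to 99.7% in FGF2, and none was higher in FGF2. For mt-Nd3 and mt-Nd5, which were not listed in FGF2 cluster 10, only bounds can be given: 90.2% to 93.9% in FGF2 against 99.1% in control for mt-Nd3, and 83.2% to 86.9% against 97.8% for mt-Nd5. Both were thus found in fewer FGF2 than control cells once the low-share clusters were set aside. A difference in counts per cell between the libraries cannot be told apart from one in the RNA.

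**Figure D4:**
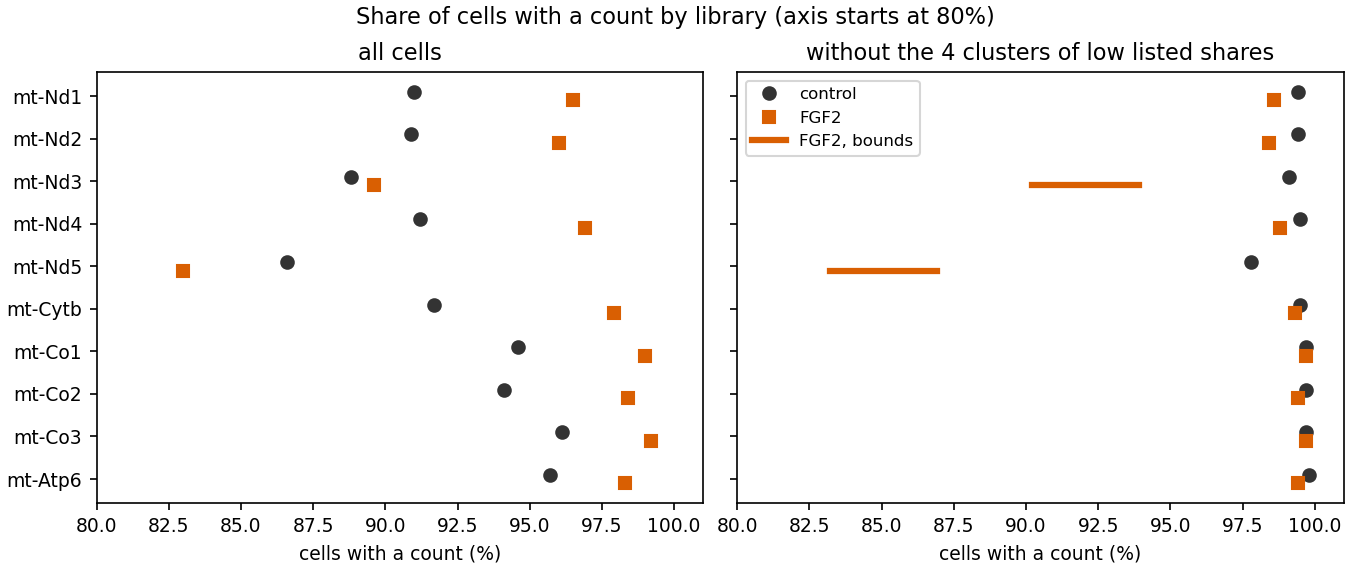
Share of cells with a count (horizontal axis, %, starting at 80) for each member in the control and FGF2 libraries, over all cells (left) and without the 4 clusters of low listed shares (right); bars are the bounds for the 2 members not listed in FGF2 cluster 10. The control points lie left of the FGF2 points for 9 members on the left and none lies left of it on the right.

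Over the 15 control clusters the members' profiles of log ratios (0 where not listed) were alike, with Pearson's r between pairs from 0.81 (mt-Nd5 and mt-Co3) to 1.0 and a median of 0.92. Over the 17 FGF2 clusters r ran from 0.55 (mt-Nd3 and mt-Co1) with a median of 0.81. The 7 control and 11 FGF2 clusters listing no member count as 0 for every member. These r thus rest on the few clusters that list members, the low-share ones among them, and are not given without those. The nuclear genes most like the members' mean profile were Serinc1 (0.77), Prrc2c (0.76), Gsk3b (0.76), Nktr (0.76) and Itgav (0.75) of 599 in control, and Plpp3 (0.71), Ly6a (0.70), Tnfaip8 (0.68), Klf9 (0.64) and Ly6e (0.63) of 473 in FGF2. The most opposite were Gm26917 (-0.84), AY036118 (-0.77), S100a11 (-0.72), Anxa3 (-0.64) and Gm42418 (-0.63) in control, and Anxa2 (-0.72), Tpm4 (-0.67), Tmsb10 (-0.66), Cryab (-0.63) and Prdx2 (-0.62) in FGF2. These are descriptions that share libraries and clusters, and none of the 5 most like genes of either library stayed among the 5 without the low-share clusters.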

How the data were processed

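The submitters' processing notes name Cell Ranger 4.0 and mm10. Not given in the sources used here: filters on cells (any on mitochondrial counts included), doublets, normalization, clustering and test. From the file headers, the authors deposited for each cluster the log ratio of averages, read as a natural log after a check of the base, the fraction of cells with a count inside and outside the cluster, and p-values. The authors' p-values come from cells of 1 library and are not printed, since cells are not replicates. The number of genes tested is the ratio of the adjusted to the unadjusted p-value. It thus counts all genes adjusted for, whether or not they could be listed.

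Cluster sizes were fitted by least squares so that the fractions of each gene gave 1 library share (genes in at least 2 clusters), and levels followed from the ratios. The calculation was tested on simulated data built with the same formulas, which checks the arithmetic and not whether the formulas hold for these data. The genes named are the 10 members, up to 4 examples per list by size of ratio, 3 leading genes per cluster and the 5 most and least like genes among those listed in at least 5 clusters. Members and lists were chosen with earlier results of these data known. The sequences and coordinates are from GENCODE for GRCm38. Python 3.11.15 with numpy 2.4.6 and pandas 2.3.3 was used. Alternatives are given in the closing section.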

Additional observations from a re-analysis of the deposited data

Results flagged for a closer look

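Control cluster 10 and FGF2 cluster 16 hold most of the Schwann or glial markers in their libraries. Of 518 genes listed in both, 24 pointed opposite ways, 4.63% of the 518 (1.5% of the control list and 2.24% of the FGF2 list). The 3 members listed in both were among the 24. In the authors' deposited tables, mt-Nd3 had a log ratio of 0.35 in control cluster 10 and -0.38 in FGF2 cluster 16. In the authors' deposited tables, mt-Co2 had 0.31 and -0.59, and mt-Atp6 had 0.32 and -0.54. Of 10 nuclear chain genes listed in both, 0 pointed opposite ways. The difference was not tested, with 1 library a group, and the clusters are not shown to hold the same cells: the median share over listed genes was 56.9% in control cluster 10 and 16.1% in FGF2 cluster 16.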

How the results depend on the processing

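With 1 library a group, an alternative was taken as moving a value when it moved by over 1.5 times. No library share moved that far with sizes fitted from genes in at least 3 clusters or without the low-share clusters. Shares this near all cells cannot rise 1.5-fold. A 2-fold size rule, a stricter one, left 0 members past it between libraries. No median level of a cluster moved that far or crossed to the other side of the library level under its alternatives. These were levels against the other cells, base 2, sizes fitted from genes in at least 3 clusters, and unlisted members at the library level. None of these can carry a level to the other side, so that part of the outcome was fixed in advance. With unlisted members at the library level, though, the medians of control clusters 11 and 12 and FGF2 clusters 11 and 15, where 3 members or fewer are listed, became 1.0, with no direction left. The low-share clusters were set apart for low shares and held a larger part of the control cells. Without them, none of the 8 members that could be computed was found in more FGF2 than control cells. The difference in share went from 5.5 to -0.8 points (FGF2 minus control) for mt-Nd1, 5.1 to -1.0 for mt-Nd2 and 6.2 to -0.2 for mt-Cytb. For mt-Co1 and mt-Co3, at 99.7% in both libraries, it vanished at the precision given. mt-Nd3 and mt-Nd5 had no such share in FGF2, and the bounds used in its place were chosen after seeing the data. With only entries of the authors' adjusted p under 0.05, member entries listed higher in control went from 20 to 13. Nuclear chain genes listed lower then went from 15 to 5 in control cluster 10, from 5 to 2 in control 11, from 17 to 1 in control 12, from 8 to 0 in control 14 and from 29 to 6 in FGF2 16, and those listed higher from 10 to 0 in control 13 and from 14 to 3 in FGF2 15. With a log ratio of at least 0.5 in size, 1 member entry was higher in control, and 0 were higher and 15 lower in FGF2. The integrated table had 0 member entries in either direction. The 5 genes most like the members kept 0 of 5 names, both without the low-share clusters and over clusters listing both. The causes were not tested. No paired analysis was possible because each group has 1 library and no test was run.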

Other observations

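The other mitochondrially encoded protein genes listed were mt-Nd4l of complex I, mt-Atp8 of ATP synthase and mt-Nd6, the complex I gene on the minus strand. mt-Nd4l was listed lower in control clusters 4 and 9, at 0.632 and 0.451 times the library level, and higher in 10 and 13, at 1.46 and 1.48, and lower in FGF2 clusters 10 and 13, at 0.642 and 0.632. It was found in 84.7% of control and 79.2% of FGF2 cells, and in 96.1% and 82.6% without the low-share clusters. mt-Atp8 was listed in control clusters 10 and 13 only, higher, at 1.29 and 1.5. mt-Nd6 was listed in control cluster 9 only, lower, at 0.62, with a count in 2.1% of its cells against 64.9% of the others.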
